A study of Mus musculus with 12 samples.

Results

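Transcripts of 36 genes of the extracellular matrix and of contractile, activated fibroblasts were followed through 12 libraries of mouse pancreatic ductal adenocarcinoma (PDAC) grown under the skin. The members were picked by gene symbol, and all 36 were found among the 25619 genes listed in every deposited table and passed the filter on low counts. Bulk RNA sequencing was done on whole tumours in 4 groups of 3 libraries: untreated, anti-IL-1R1 (an antibody that blocks the receptor of the IL-1 cytokines), CD40 agonist (an antibody that stimulates CD40 on antigen-presenting cells) and the combination of both antibodies. Treated mice were injected 2 times a week into the peritoneum. The tumour line, the strain and age of the mice, the antibody clones, the doses and the day of sampling are not stated in the labels. The series asks what the CD40 agonist does to such tumours alone and with IL-1R1 blocked.

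Pancreatic carcinomas are known for a dense stroma. Fibroblasts that turn into myofibroblasts assemble actin filaments rich in smooth muscle actin and secrete collagens, fibronectin and other matrix proteins, a programme driven above all by TGF-beta. Fibrillar collagens give tensile strength, basement membrane collagens line vessels and epithelia, glycoproteins and small proteoglycans organise the fibrils, and lysyl oxidases cross-link them. IL-1 is known to push pancreatic fibroblasts towards an inflammatory state, and TGF-beta towards the myofibroblast state.

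The libraries held 27.8 to 53.3 M reads in genes. Levels are given in CPM, counts per M reads after scaling of the library totals, and the 3 values of a group stand in the order of replicates 1, 2 and 3. Fibroblast transcripts were present in every library, with Pdgfrb, a growth factor receptor of mesenchymal cells, at 108 to 378 CPM and Thy1, a fibroblast surface protein, at 111 to 312 CPM. Summed skeletal muscle markers stood at 1962 CPM in CD40 agonist 2 and 3829 CPM in combination 1, against 3.71 to 58.6 CPM elsewhere. Whether the 3 libraries of a treatment stem from different mice is stated nowhere, and p-values here reflect the spread among these libraries, part of which may be technical. In whole tumours, fewer cells of a type and less RNA per cell cannot be told apart.

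No member passed edgeR's quasi-likelihood test in any of 8 comparisons, with p adjusted by Benjamini-Hochberg over 19436 genes at a threshold of 0.05. Of all tested genes the share called was 0.00515% for combination against CD40 agonist, 0% for anti-IL-1R1 against untreated, 0% for CD40 agonist against untreated and 0.0617% for combination against untreated. It was 2.44% for combination against anti-IL-1R1, 0% for the interaction of the antibodies, 2.19% for the average effect of CD40 agonist (groups with it against groups without it) and 0% for the average effect of anti-IL-1R1. At an unadjusted p under 0.05 the members counted 1, 0, 1, 4, 5, 1, 4 and 1 of 36 in the same order, beside 6.64%, 1.56%, 2.41%, 15.5%, 14.6%, 4.37%, 14.3% and 4.58% of all tested genes. DESeq2 called 2 members higher in combination against untreated (Thbs2 and Dcn), 1 lower in combination against anti-IL-1R1 (Lum) and 1 higher in the average effect of CD40 agonist (Dcn), and 0 in the other 5 comparisons. Of all tested genes DESeq2 called 5.30%, 6.67% and 5.71% in those 3 comparisons. The authors' deposited tables, which cover combination against CD40 agonist and each antibody alone against untreated, likewise held 0 called members, with a lowest adjusted p of 0.2078.

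Most members nevertheless had lower mean levels after treatment by a small amount. Against untreated, 27 of 36 had a negative log2 fold change with anti-IL-1R1 (median -0.14), 24 with CD40 agonist (median -0.08) and 27 in the combination (median -0.26). In combination against CD40 agonist 27 were negative (median -0.22), and in combination against anti-IL-1R1 24 (median -0.15). The median over all tested genes lay between -0.03 and 0.01 in these comparisons and in the interaction. These comparisons share libraries. The members' median level had an SD of 0.454 between single libraries of the same group, pooled over the 4 groups, whose spreads differed. That SD is not the error of a difference between group means, so it does not test these medians.

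**Figure D1:**
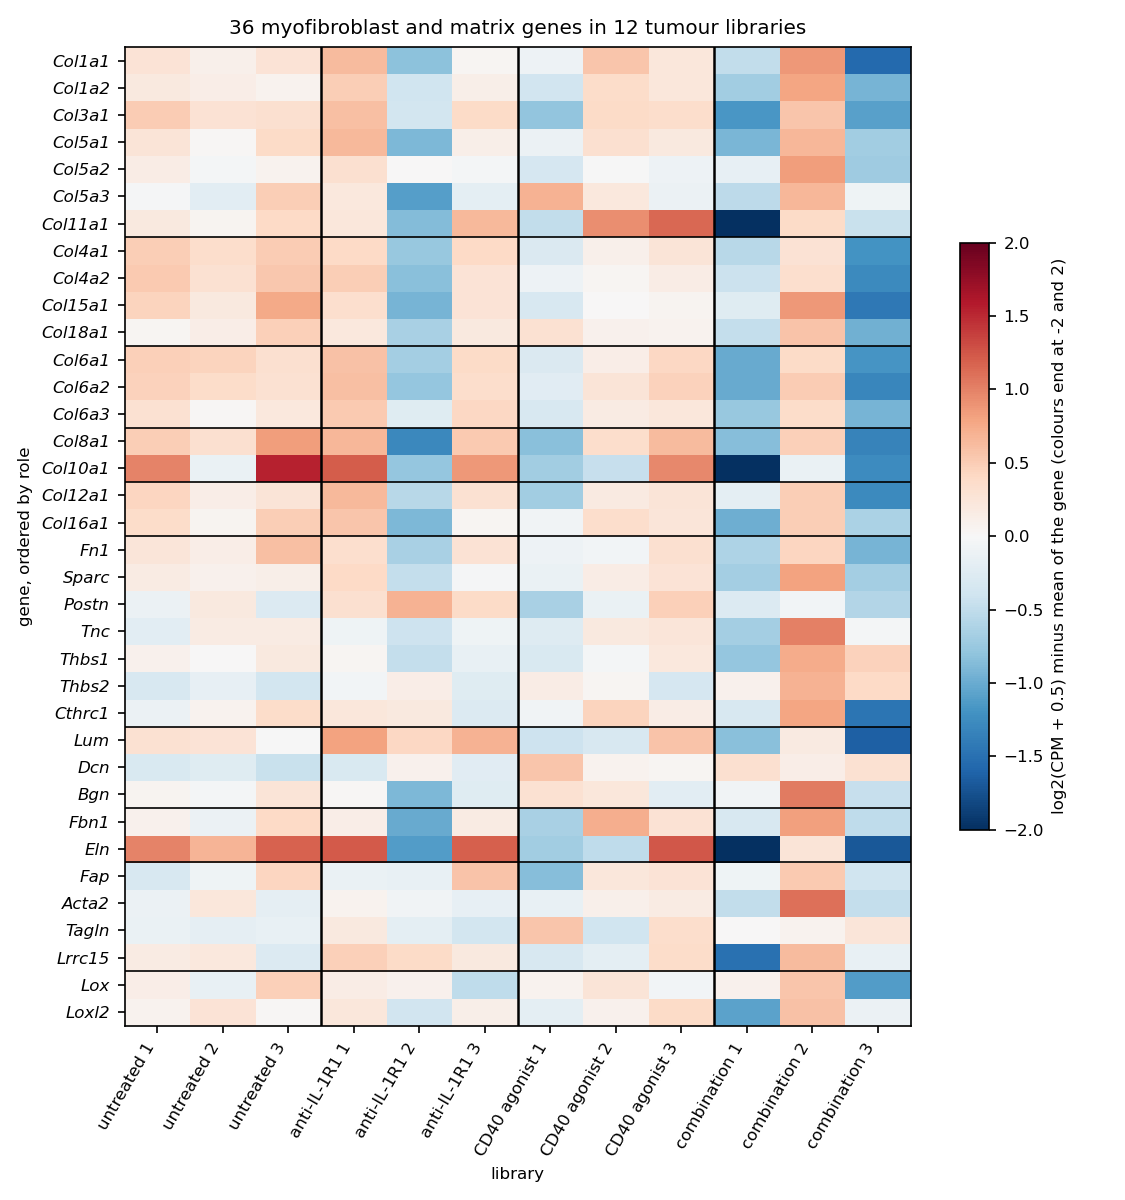
Level of each of the 36 genes (rows, ordered by role, lines between roles) in each of the 12 libraries (columns), as log2(CPM + 0.5) minus the gene's mean over the libraries. Combination 1, combination 3, anti-IL-1R1 2 and CD40 agonist 1 are low in most genes and combination 2 is high, while untreated libraries are alike.

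Libraries of the same treatment differed widely in these genes. Their median deviation from each gene's mean, in log2, was 0.18, 0.11 and 0.32 in the untreated libraries and 0.34, -0.51 and 0.17 with anti-IL-1R1. For CD40 agonist it was -0.27, 0.14 and 0.25, and for the combination -0.58, 0.55 and -0.82. Combination 3 held the lowest value of the 12 libraries in 16 members and combination 1 in 12, whereas combination 2 held the highest in 17. The 36 genes together took 3.48 to 3.77% of reads in untreated tumours, and 1.98, 4.61 and 1.73% in the combination. With anti-IL-1R1 they took 4.13, 2.21 and 3.63%, and with CD40 agonist 2.59, 3.61 and 3.64%. The median SD of a member within its group was 0.176 (log2) in untreated, 0.480 in anti-IL-1R1, 0.297 in CD40 agonist and 0.855 in combination libraries. Over the 14388 genes that averaged 1 CPM or more these SDs were 0.159, 0.284, 0.238 and 0.354.

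Combination 2 stood apart from the other libraries of its group in the values of these same members. Fits without it are therefore no independent support for a lower level in the combination. Without it the median of the members in combination against untreated was -0.93 and 5 passed, all lower. These were Col3a1, Col6a1, Col6a2, Col6a3 and Lum, while 2.68% of all genes tested in that fit were called. In combination against anti-IL-1R1 the median was -0.84 without it and 4 passed, all lower: Col3a1, Col6a1, Col6a3 and Lum, while 3.22% of all genes were called. In combination against CD40 agonist the median was -0.81 without it and 0 members passed. Without combination 3 the medians of these 3 comparisons were -0.09, 0.05 and -0.04, and 0 members passed in each. The median of anti-IL-1R1 against untreated was 0.07 without anti-IL-1R1 2.

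Anti-IL-1R1 2 and combination 3 were also low in long, GC-rich transcripts of any kind. The 1118 genes in the upper tercile of both transcript length and GC content deviated by -0.36 and -0.38 in those libraries, against -0.06 to 0.17 in the other 10. Of the 35 members that averaged 1 CPM or more, 12 were among these genes, and the members' median transcript length was 5313 bases at 52.4% GC, against 3248 bases and 49.6% over all 14266 genes sorted in this way. After an offset for GC content and length the members' median deviation was -0.33 in anti-IL-1R1 2 and -0.47 in combination 3, while combination 1 and combination 2 stood at -0.69 and 0.52. With that offset 0 members passed in any comparison, and the median was -0.20 for combination against untreated and -0.05 for anti-IL-1R1 against untreated. With both of these libraries left out it was -0.11 for combination against untreated, again with 0 members called.

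**Figure D2:**
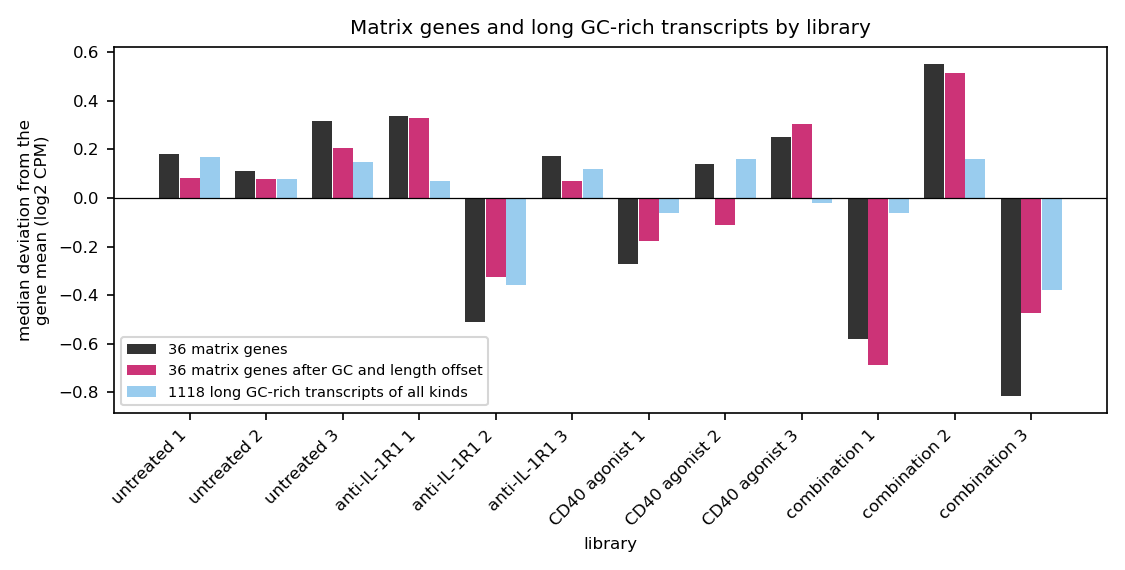
Median deviation from the gene mean (log2, y axis) in each library (x axis) of the 36 matrix genes before (dark bars) and after (pink bars) an offset for GC content and length, and of 1118 long GC-rich transcripts (light bars). The light bars are lowest in anti-IL-1R1 2 and combination 3, and the offset leaves the matrix genes low in combination 1 and high in combination 2.

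Transcripts of collagen III and collagen I were among the most abundant members per length. Col3a1, the chain of collagen III, led with a mean of 625 RPKM (reads per kilobase of gene length and M reads) over the 12 libraries, followed by Sparc, a collagen-binding glycoprotein, at 602, Col1a1 at 506 and Fn1, fibronectin, at 439 RPKM. Col3a1 (ENSMUSG00000026043, chromosome 1, 45350698 to 45388866, mm39) stood at 7998, 6921 and 7055 CPM in untreated, 8547, 4366 and 7351 with anti-IL-1R1, 3265, 7377 and 7236 with CD40 agonist and 2528, 8305 and 2663 CPM in the combination. The low libraries were thus 1 each of the single antibodies and combination 1 and 3, and all groups overlapped. Its log2 fold change in combination against untreated was -0.70 (SE 0.452, adjusted p 0.478), with a level of 4499 ± 3297 against 7325 ± 587 CPM (SD, n = 3).

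Collagen I is the main fibril of scar tissue, and its chains behaved alike. Col1a1 (ENSMUSG00000001506, chromosome 11, 94827050 to 94843868) measured 3687, 3253 and 3674 CPM in untreated, 4713, 1720 and 3133 with anti-IL-1R1, 2850, 4484 and 3554 with CD40 agonist and 2172, 5574 and 1039 CPM in the combination. Col1a2 (ENSMUSG00000029661, chromosome 6, 4504814 to 4541544) measured 2816, 2698 and 2597, then 3463, 1859 and 2675, then 1898, 3182 and 2891, and 1519, 4264 and 1293 CPM in the same order. Combination 2 was the highest and combination 3 the lowest of the 12 libraries for both genes. In combination against untreated their log2 fold changes were -0.27 (SE 0.511, adjusted p 0.838) and -0.20 (SE 0.393, adjusted p 0.850). Col11a1, a minor fibrillar chain best known from cartilage and from activated fibroblasts of carcinomas, was low, at 16.1, 14.4 and 18.6 CPM in untreated and 2.66, 18.4 and 10.1 CPM in the combination. It reached 9.71, 27.1 and 31.5 CPM with CD40 agonist and 16.3, 7.44 and 22 CPM with anti-IL-1R1, so the groups overlapped (combination against CD40 agonist log2 -1.13, SE 0.634, adjusted p 0.803). The collagen V chains Col5a1, Col5a2 and Col5a3, which start fibrils, had group means of 543 to 702, 454 to 546 and 193 to 287 CPM.

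Of the basement membrane collagens, Col4a1 and Col4a2 encode the chains of collagen IV and lie head to head, so that their starts overlap by 22 bases. Col4a1 (ENSMUSG00000031502, chromosome 8, 11248423 to 11362826) measured 1326, 1202 and 1340 CPM in untreated, 1252, 557 and 1239 with anti-IL-1R1, 774, 1012 and 1130 with CD40 agonist and 646, 1160 and 414 CPM in the combination. Every CD40 agonist library and every combination library lay below every untreated one. The log2 fold change was -0.41 with CD40 agonist (SE 0.353, adjusted p 1.00) and -0.80 in the combination (SE 0.355, adjusted p 0.302). Col4a2 (ENSMUSG00000031503, chromosome 8, 11362805 to 11499287) stood at 734, 632 and 747 CPM in untreated, 720, 287 and 618 with anti-IL-1R1, 479, 525 and 569 with CD40 agonist and 379, 650 and 212 CPM in the combination. Its values in the combination overlapped with untreated (log2 -0.77, SE 0.369, adjusted p 0.342). With the offset for GC content and length the fold changes were smaller. In combination against untreated they were -0.60 for Col4a1 (SE 0.248, adjusted p 0.247) and -0.49 for Col4a2 (SE 0.233, adjusted p 0.310). For CD40 agonist against untreated they were -0.32 for Col4a1 (SE 0.248) and -0.28 for Col4a2 (SE 0.233).

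Promoters are shown for Col4a1 and Col4a2, which moved together across the libraries, and, for comparison, for Col1a2 and for Thbs2, a member that did not follow the collagens. Each window runs from 250 bases before to 50 bases after the gene's start, 5′ to 3′ on the strand of the gene, from RefSeq on GRCm38.p6. Capitals mark 3 motifs, each searched on both strands. The first is spelled CCAAT, which reads ATTGG where it lies on the opposite strand. The TATA box is spelled TATAAA, with TTTATA as its form on the opposite strand. The GC box is spelled GGGCGG, and its form on the opposite strand is CCGCCC. No 2 matches overlapped in these windows.
Col4a1 (chr8:11312777-11313076, minus strand): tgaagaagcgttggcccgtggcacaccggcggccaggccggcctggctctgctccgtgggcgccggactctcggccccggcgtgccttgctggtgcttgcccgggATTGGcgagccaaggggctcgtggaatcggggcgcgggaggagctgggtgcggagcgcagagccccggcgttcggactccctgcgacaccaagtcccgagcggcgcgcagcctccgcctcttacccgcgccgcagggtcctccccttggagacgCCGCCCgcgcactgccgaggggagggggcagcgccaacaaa
Col4a2 (chr8:11312555-11312854, plus strand): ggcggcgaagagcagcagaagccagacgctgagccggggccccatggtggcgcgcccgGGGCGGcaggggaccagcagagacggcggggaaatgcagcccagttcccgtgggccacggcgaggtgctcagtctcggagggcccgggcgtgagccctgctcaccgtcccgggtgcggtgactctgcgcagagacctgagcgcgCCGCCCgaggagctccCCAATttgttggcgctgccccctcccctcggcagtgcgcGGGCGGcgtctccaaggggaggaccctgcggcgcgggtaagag
Col1a2 (chr6:4505368-4505667, plus strand): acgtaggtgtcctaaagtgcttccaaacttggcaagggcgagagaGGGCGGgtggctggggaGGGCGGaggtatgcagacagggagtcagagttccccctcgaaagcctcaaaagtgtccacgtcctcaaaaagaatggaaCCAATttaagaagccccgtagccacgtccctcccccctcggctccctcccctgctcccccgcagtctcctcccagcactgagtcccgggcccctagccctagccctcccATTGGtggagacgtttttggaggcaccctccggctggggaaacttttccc
Thbs2 (chr17:14694213-14694512, minus strand): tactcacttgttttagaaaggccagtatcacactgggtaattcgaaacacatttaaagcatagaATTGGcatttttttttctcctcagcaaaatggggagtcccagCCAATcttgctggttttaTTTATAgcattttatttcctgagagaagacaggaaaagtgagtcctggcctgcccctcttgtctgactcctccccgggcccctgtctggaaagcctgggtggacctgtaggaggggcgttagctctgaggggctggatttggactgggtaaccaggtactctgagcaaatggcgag
The Col4a1 and Col4a2 windows share 78 bases, on opposite strands. In the Col4a2 window a CCAAT motif begins 32 bases and a GC box 48 bases before the start. In the Thbs2 window TTTATA begins 126 bases before the start, and the other 3 windows hold no TATA box on either strand. Of 32851 promoters in the table, 37.4% held the CCAAT motif, 13.6% the TATA box and 35.7% the GC box on either strand. The 23 members that matched the table had 27 promoters, of which 33.3%, 22.2% and 59.3% held them. A match says only that the letters are there.

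The ratio of the collagen IV chains hardly changed while their levels did. Col4a1 over Col4a2 in CPM ran from 1.62 to 2.01 over the 12 libraries, with an SD of 0.10 in log2, although each gene alone had an SD of 0.56 and 0.57. Col6a1 over Col6a2, neighbouring genes on chromosome 10 for chains of the beaded filament collagen VI, was as steady, from 1.41 to 1.68 with an SD of 0.08 against 0.63 and 0.66 for the genes. Col6a3 over Col6a2 was less steady, from 0.57 to 1.03 (SD 0.26), with the highest value in anti-IL-1R1 2. Col1a1 over Col1a2 ran from 0.80 to 1.5 (SD 0.27) and was below 1 in anti-IL-1R1 2 (0.93) and combination 3 (0.80). Col5a1 over Col5a2 ran from 0.64 to 1.51 (SD 0.42), with the lowest value in anti-IL-1R1 2. Anti-IL-1R1 2 and combination 3 were also the libraries low in long, GC-rich transcripts. The part of GC content, length or gene position in these ratios was not tested. These ratios are descriptions over libraries that share their depth and composition.

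**Figure D3:**
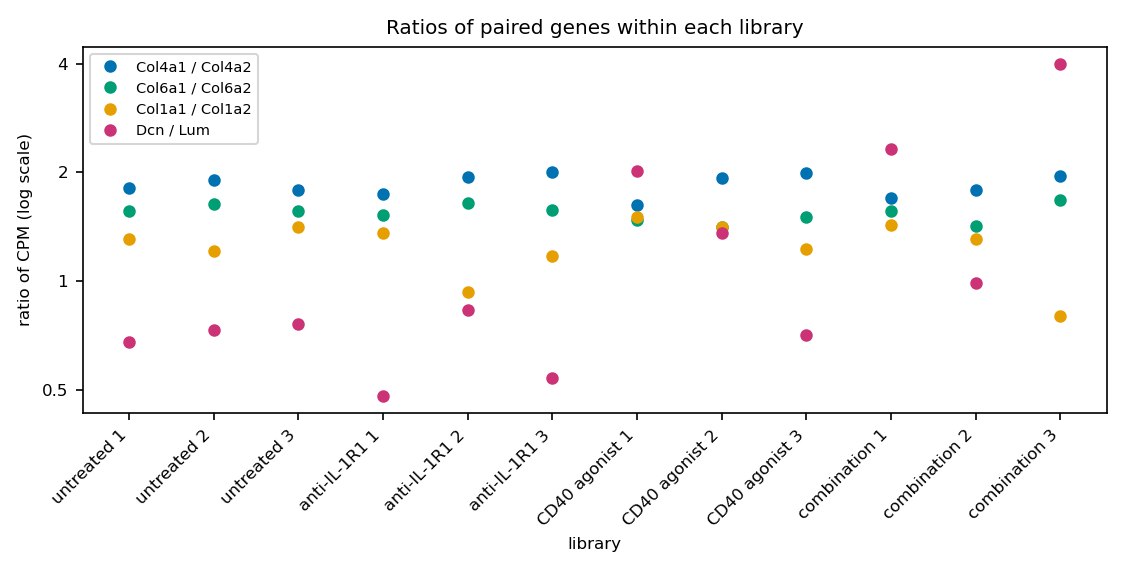
Ratio of CPM (y axis, log scale) of 4 gene pairs in each of the 12 libraries (x axis). The collagen IV and collagen VI ratios lie between 1.41 and 2.01 throughout, while Dcn over Lum runs from 0.48 to 4.00.

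Collagen XV and collagen XVIII join basement membranes to the tissue around them. Col15a1 measured 214, 179 and 266 CPM in untreated and 125, 157 and 163 CPM with CD40 agonist, and was with Col4a1 and Col4a2 the third member whose CD40 agonist libraries all lay below the untreated ones. Of 36 members 8.33% did so, beside 5.81% of all tested genes. Col15a1 in the combination, at 132, 286 and 57.7 CPM, overlapped with untreated, and Col18a1 had means of 1183 to 1533 CPM over the groups.

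Collagen VI followed the same libraries as the fibrillar collagens. Col6a1 (ENSMUSG00000001119, chromosome 10, 76544626 to 76562002) measured 1601, 1566 and 1446 CPM in untreated, 1730, 716 and 1510 with anti-IL-1R1, 947, 1266 and 1541 with CD40 agonist and 576, 1508 and 509 CPM in the combination. Combination 1 and 3 lay below every untreated library and combination 2 among them. Against untreated the log2 fold change in the combination was -0.83 (SE 0.405, adjusted p 0.350). Col6a2 and Col6a3 had means of 973 ± 50.9 and 608 ± 56.6 CPM in untreated and 579 ± 420 and 430 ± 228 CPM in the combination.

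Col10a1, a short-chain collagen best known from growth plate cartilage, had the steepest mean decline of the members. Col10a1 (ENSMUSG00000039462, chromosome 10, 34265977 to 34273081) stood at 22.2, 9.81 and 32.6 CPM in untreated, 25.7, 6.13 and 20.3 with anti-IL-1R1, 6.52, 7.78 and 21.5 with CD40 agonist and 2.12, 9.84 and 4.26 CPM in the combination. All groups overlapped, combination 2 and untreated 2 being nearly equal. Its log2 fold change was -1.99 in combination against untreated (SE 0.737, adjusted p 0.233) and -1.69 against anti-IL-1R1 (SE 0.731, adjusted p 0.320). The gene lies wholly within Nt5dc1 on the opposite strand, which held 11.2 to 19.1 CPM, and no label says whether counting used strand, so its reads are uncertain. Col8a1, the other short-chain collagen, measured 506, 449 and 638 CPM in untreated and 199, 501 and 141 CPM in the combination. The fibril-associated collagens Col12a1 and Col16a1 had means of 519 to 701 and 94.6 to 139 CPM over the groups.

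Among the glycoproteins, fibronectin and Sparc were abundant and followed the collagens. Fn1 (ENSMUSG00000026193, chromosome 1, 71624679 to 71692359) measured 5802, 5355 and 7387 CPM in untreated, 6185, 3109 and 5950 with anti-IL-1R1, 4533, 4705 and 6114 with CD40 agonist and 3196, 6614 and 2573 CPM in the combination. Sparc (ENSMUSG00000018593, chromosome 11, 55285326 to 55314009) measured 2445, 2324 and 2384, then 2883, 1580 and 2151, then 1998, 2418 and 2657, and 1360, 3816 and 1368 CPM. The 2 low and 1 high combination library recur in both. In combination against untreated the log2 fold changes were -0.58 for Fn1 (SE 0.338, adjusted p 0.421) and -0.13 for Sparc (SE 0.349, adjusted p 0.897).

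Thbs2 differed from most members in that its log2 fold changes against untreated were above 0. Thbs2 (ENSMUSG00000023885, chromosome 17, 14885762 to 14914497) encodes a matricellular protein that restrains vessel growth. It measured 276, 310 and 269 CPM in untreated, 332, 379 and 292 with anti-IL-1R1, 382, 356 and 273 with CD40 agonist and 367, 559 and 458 CPM in the combination. Every combination library lay above every untreated one, while the single antibodies overlapped with both. The log2 fold change in combination against untreated was 0.69 (SE 0.187, unadjusted p 0.00234, adjusted p 0.105), and DESeq2 called it (adjusted p 0.0171). It was 0.45 against CD40 agonist (SE 0.186, adjusted p 0.719) and 0.46 against anti-IL-1R1 (SE 0.186, adjusted p 0.249). Thbs1, a relative that activates latent TGF-beta, measured 762, 725 and 819 CPM in untreated, 734, 516 and 648 with anti-IL-1R1, 581, 701 and 831 with CD40 agonist and 420, 1202 and 990 CPM in the combination. Its groups overlapped (interaction log2 0.59, SE 0.416, adjusted p 1.00).

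Postn, periostin, a TGF-beta-induced protein of activated stroma, was highest with anti-IL-1R1 alone. Postn (ENSMUSG00000027750, chromosome 3, 54268530 to 54298458) measured 564, 700 and 505 CPM in untreated, 763, 988 and 798 with anti-IL-1R1, 388, 558 and 851 with CD40 agonist and 502, 588 and 406 CPM in the combination. All anti-IL-1R1 libraries lay above all untreated and all combination libraries, but not above CD40 agonist 3. The log2 fold change was 0.53 for anti-IL-1R1 against untreated (SE 0.253, unadjusted p 0.0560, adjusted p 1.00) and -0.77 for combination against anti-IL-1R1 (SE 0.254, adjusted p 0.146). The interaction was -0.79 (SE 0.357, unadjusted p 0.0438, adjusted p 1.00). With the offset for GC content and length the first of these was 0.33 (SE 0.292, unadjusted p 0.282), and the interaction -0.66 (SE 0.412, unadjusted p 0.133). Anti-IL-1R1 2, low in most matrix genes, was the highest library for Postn.

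Tnc, tenascin C, an adhesion-modulating protein of wounds, had means of 645 to 881 CPM and its maximum of 1474 CPM in combination 2. Cthrc1, a secreted protein of activated fibroblasts, measured 22.7, 25.7 and 31.8 CPM in untreated, 28.9, 28.2 and 20.2 with anti-IL-1R1, 23.4, 33.7 and 27.3 with CD40 agonist and 19.5, 43.0 and 8.60 CPM in the combination. The extremes of Cthrc1 were again combination 2 and combination 3 (combination against untreated log2 -0.17, SE 0.424, adjusted p 0.884).

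The small leucine-rich proteoglycans decorin and lumican, which bind collagen fibrils and set their diameter, went apart. Dcn (ENSMUSG00000019929, chromosome 10, 97315471 to 97354005) measured 114, 119 and 103 CPM in untreated, 114, 149 and 120 with anti-IL-1R1, 206, 148 and 144 with CD40 agonist and 175, 153 and 173 CPM in the combination. Every CD40 agonist and every combination library lay above every untreated one, and every combination library above every anti-IL-1R1 one. Averaged over both backgrounds the log2 effect of CD40 agonist was 0.48 (SE 0.120, unadjusted p 0.00143, adjusted p 0.0565). By comparison the log2 fold change was 0.57 for CD40 agonist against untreated (SE 0.170, adjusted p 1.00), 0.58 for combination against untreated (SE 0.170, adjusted p 0.131) and 0.39 for combination against anti-IL-1R1 (SE 0.170, adjusted p 0.307).

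The average effect on Dcn passed with DESeq2 (adjusted p 0.0115), without CD40 agonist 3 (adjusted p 0.0373) and without combination 2 (adjusted p 0.0470), fits that called 5.71%, 3.72% and 3.05% of all genes. CD40 agonist 3 and combination 2 held the lowest Dcn value of their groups, so leaving either out raises the group mean. No other fit with 1 library left out called Dcn, so these fits are no independent support. Over all alternatives the adjusted p of this effect ran up to 0.180, and its log2 value from 0.38 to 0.52. Dcn spanned 2.00-fold between its lowest and highest library, the narrowest range of the 36 genes, and Thbs2 followed with 2.08-fold.

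Lum (ENSMUSG00000036446, chromosome 10, 97400990 to 97408565) starts 46984 bases beyond the end of Dcn. It measured 167, 164 and 135 CPM in untreated, 238, 180 and 220 with anti-IL-1R1, 102, 108 and 202 with CD40 agonist and 75.4, 153 and 43.3 CPM in the combination. All anti-IL-1R1 libraries lay above all untreated and all combination libraries. The log2 fold change was -1.23 for combination against anti-IL-1R1 (SE 0.393, unadjusted p 0.00912, adjusted p 0.146), called by DESeq2 (adjusted p 0.0162) and without combination 2 (-1.85, adjusted p 0.0137). The average effect of CD40 agonist was -0.70 (SE 0.275, adjusted p 0.261) and passed without combination 2 (-1.01, adjusted p 0.0256). As combination 2 stood apart in the values of these same members, the fits without it are no independent support for a lower Lum. Dcn over Lum in CPM was 0.68, 0.73 and 0.76 in untreated, 0.48, 0.83 and 0.54 with anti-IL-1R1, 2.02, 1.36 and 0.71 with CD40 agonist, and in the combination 2.32, 0.99 and 4.00. The ratio was thus above 0.83, the highest value without CD40 agonist, in 5 of the 6 libraries that received it, the exception being CD40 agonist 3. That cutoff was taken from these same libraries, and other gene pairs were not counted in this way. The count is therefore a description and not a test.

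Bgn, biglycan, the third proteoglycan, measured 803, 749 and 922 CPM in untreated, 786, 414 and 649 with anti-IL-1R1, 948, 897 and 667 with CD40 agonist and 735, 1577 and 562 CPM in the combination. Its groups overlapped (anti-IL-1R1 against untreated log2 -0.42, SE 0.334, adjusted p 1.00).

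**Figure D4:**
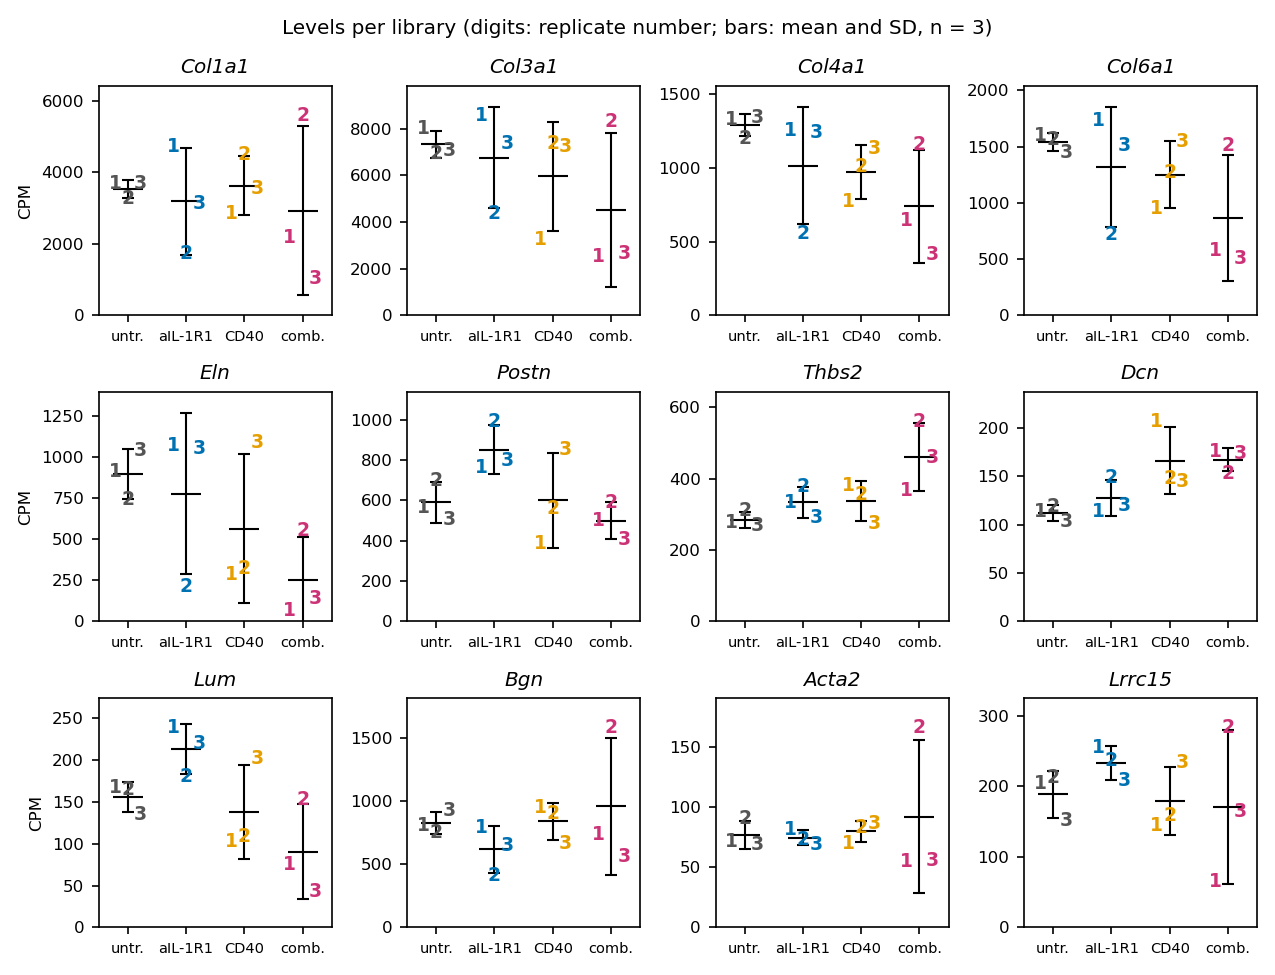
CPM (y axis, from 0) of 12 of the genes in the 4 groups (x axis: untreated, anti-IL-1R1, CD40 agonist, combination), with digits at each replicate's value and bars for mean and SD (n = 3; lower ends below 0 are not drawn). Col1a1, Col3a1 and Col6a1 have 1 high and 2 low combination libraries, and Dcn is above untreated in every library with CD40 agonist.

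At most 3 of the 36 members had groups that did not overlap in any comparison and direction. For anti-IL-1R1 against untreated 2 members were higher in every library (Lum and Postn, 5.56% of 36, beside 4.84% of tested genes) and 0 lower, beside 4.99%. For CD40 agonist against untreated only Dcn was higher, beside 5.14%, and Col4a1, Col4a2 and Col15a1 were lower, as given above. For combination against untreated 3 were higher (Dcn, Thbs2 and Tagln, beside 10.7%) and 2 lower (Col4a1 and Eln, beside 11.7%). For combination against anti-IL-1R1 1 was higher (Dcn, beside 8.80%) and 2 lower (Lum and Postn, beside 8.29%). For combination against CD40 agonist there were 0 in either direction, beside 3.54% higher and 5.02% lower. In the average effects, where both groups with an antibody had to lie apart from both without it, there were 0 as well, beside 0.391% higher and 0.396% lower for CD40 agonist and 0.0515% higher and 0.0926% lower for anti-IL-1R1.

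Eln had the widest range of the members. Eln (ENSMUSG00000029675, chromosome 5, 134731447 to 134776177), the elastin core of the fibre, measured 912, 738 and 1040 CPM in untreated, 1069, 210 and 1050 with anti-IL-1R1, 282, 323 and 1087 with CD40 agonist and 67.2, 551 and 142 CPM in the combination. Each single antibody had both high and low libraries, and all combination libraries lay below all untreated ones. Its lowest and highest libraries differed 16.2-fold, and the log2 fold change in combination against untreated was -1.82 (SE 0.896, adjusted p 0.366). Eln was singled out after its values were seen. Fbn1, fibrillin, which scaffolds elastin, had means of 167 to 217 CPM over the groups.

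Markers of the myofibroblast itself were uneven. Acta2, smooth muscle actin, stood at a mean of 36.8 RPKM, Lrrc15, a membrane protein of TGF-beta-driven carcinoma fibroblasts, at 36.4 RPKM and Fap, a fibroblast surface protease, at 2.37 RPKM, while Tagln, the actin-binding protein transgelin, was barely detected at 0.251 RPKM. Acta2 (ENSMUSG00000035783, chromosome 19, 34218490 to 34232990) measured 71.1, 90.3 and 68.7 CPM in untreated, 81.4, 73.5 and 68.8 with anti-IL-1R1, 70.0, 83.3 and 86.8 with CD40 agonist and 55.2, 166 and 55.6 CPM in the combination. Apart from combination 2 all values lay between 55.2 and 90.3 CPM (combination against untreated log2 0.27, SE 0.346, adjusted p 0.752). Acta2 shares most of its coding sequence with other actins, and the skeletal muscle gene Acta1 reached 655 CPM in CD40 agonist 2 and 1563 CPM in combination 1. Acta2 stood at 83.3 and 55.2 CPM there.

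Tagln (ENSMUSG00000032085, chromosome 9, 45840917 to 45847356) held 9 to 45 reads per library, or 0.396, 0.367 and 0.385 CPM in untreated, 0.627, 0.352 and 0.256 with anti-IL-1R1, 0.932, 0.241 and 0.752 with CD40 agonist and 0.486, 0.533 and 0.663 CPM in the combination. Although all combination libraries lay above all untreated ones, the counts are small (log2 0.55, SE 0.744, adjusted p 0.761). The gene overlaps the long noncoding gene Gm48529 by 3627 bases and Pcsk7 by 108 bases, both on the other strand, so its reads are uncertain. The smooth muscle genes Cnn1, calponin, and Myh11, smooth muscle myosin, were low too, at 0.257 to 3.95 and 0.141 to 4.64 CPM. Wider lists were not all low. The 12 genes of the actin cytoskeleton and SRF targets summed to 2051 to 3409 CPM over the libraries. The 11 markers of pericytes and vascular smooth muscle summed to 87 to 1503 CPM, with the highest sum in the muscle-rich combination 1. Of the name myofibroblast, these libraries carried Acta2, the matrix genes and the summed actin cytoskeleton list, with Cnn1 and Myh11 at 4.64 CPM or less. The low count of Tagln is left out of this because its reads are uncertain.

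Lrrc15 (ENSMUSG00000052316, chromosome 16, 30088120 to 30102074) measured 204, 212 and 151 CPM in untreated, 255, 237 and 208 with anti-IL-1R1, 145, 159 and 234 with CD40 agonist and 64.7, 283 and 164 CPM in the combination. Fap (ENSMUSG00000000392, chromosome 2, 62331287 to 62404419) measured 10.3, 12.1 and 17.6, then 11.8, 11.6 and 19.4, then 6.91, 15.2 and 15.7, and 12.2, 18.7 and 9.73 CPM. Neither gene separated any groups, with combination against untreated at log2 -0.15 for Lrrc15 (SE 0.398, adjusted p 0.895) and 0.02 for Fap (SE 0.353, adjusted p 0.982). The cross-linking enzymes Lox and Loxl2 had means of 105 to 123 and 213 to 240 CPM over the groups, and their groups overlapped.

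**Figure D5:**
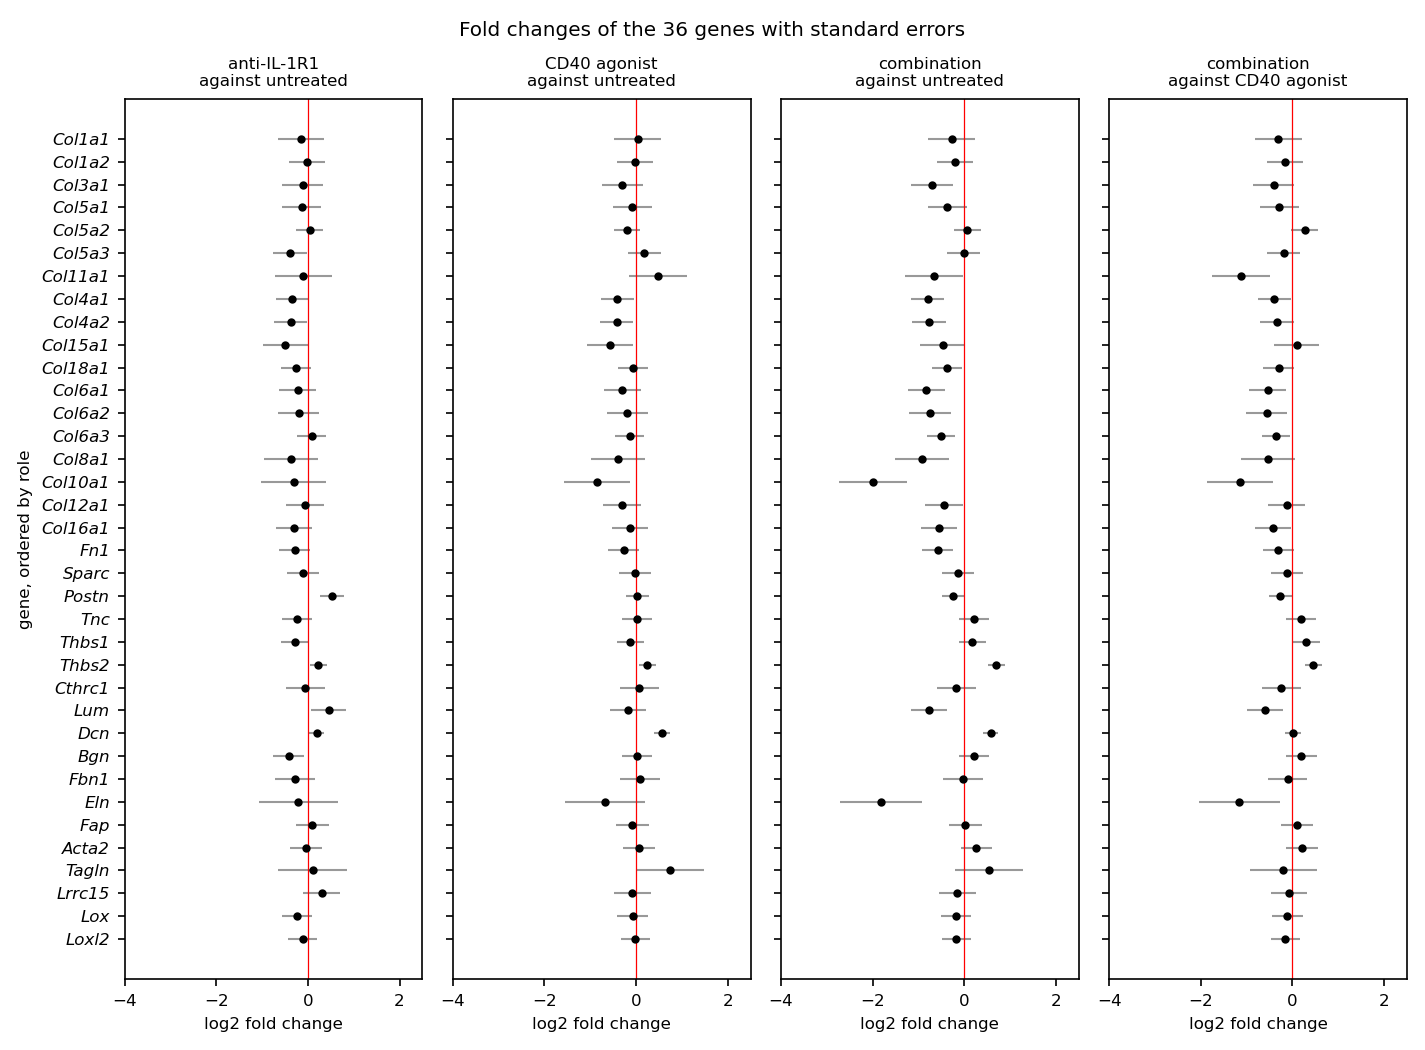
Log2 fold change (x axis) with its standard error (bars) of each of the 36 genes (y axis, ordered by role) in 4 comparisons from edgeR's fit of all 12 libraries. No gene passed the test, Dcn and Thbs2 have narrow errors to the right of 0 in combination against untreated, and Col10a1 and Eln lie farthest to the left.

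Few of the listed genes that act around the matrix passed the test. Of 8 TGF-beta ligands, latency proteins and activators and 12 receptors and SMADs, 0 passed in any comparison. Ltbp4, a latency protein, had a log2 fold change of -0.94 and Inhba, an activin subunit, one of 0.81 in combination against untreated (adjusted p 0.265 and 0.306). Of 22 genes for collagen folding and processing 0 passed either, the lowest p in combination against untreated being that of the prolyl hydroxylase P4ha1 (log2 -0.60, adjusted p 0.185). The 12 genes of the actin cytoskeleton and SRF targets gave 0 calls too.

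Of 10 genes listed as responding to TGF-beta or YAP, 4 rose in combination against anti-IL-1R1 and 0 fell. In that comparison 2.44% of all tested genes were called. The rest of the list was not called there, and the list was chosen with earlier results of these data known. Whether TGF-beta or YAP had a part in these calls was not tested. Cdkn1a, a cell cycle inhibitor, measured 34.1, 20.3 and 20.3 CPM with anti-IL-1R1 and 88.3, 55.3 and 80.0 CPM in the combination (log2 1.58, SE 0.327, adjusted p 0.0308). Tgfbi, a secreted adhesion protein, measured 203, 120 and 204 against 280, 389 and 420 CPM (log2 1.05, SE 0.234, adjusted p 0.0372). Ankrd1, a stretch-responsive nuclear protein and YAP target, measured 37.9, 72.1 and 47.2 against 125, 73.7 and 192 CPM (log2 1.31, SE 0.302, adjusted p 0.0424). The groups did not overlap in any of these, and Amotl2, a YAP-binding protein, was the fourth gene (log2 0.87, SE 0.181, adjusted p 0.0295). Cdkn1a, Ankrd1 and Tgfbi also rose in the average effect of CD40 agonist (adjusted p 0.0306, 0.0400 and 0.0443). In that effect 2.19% of all tested genes were called. Of 13 tested collagen and fibronectin receptors 1 rose in combination against anti-IL-1R1 and in the average effect of CD40 agonist, the leukocyte receptor Lair1 (log2 1.45 and 0.97, adjusted p 0.0259 and 0.0334). With the replicate number as a block, 0 of all tested genes were called in either comparison. Anti-IL-1R1 and combination libraries with the same number did not deviate alike from their group means (correlations of 0.020, -0.527 and -0.244). As only untreated and anti-IL-1R1 numbers were taken to pair, the block cannot show whether the calls hold. In combination against anti-IL-1R1, where 474 genes were called with all libraries, 0 were called when any 1 of the anti-IL-1R1 libraries was left out, and 3 without combination 3. In the average effect of CD40 agonist the 426 calls came to 0 without untreated 2, without anti-IL-1R1 1 and with limma voom, and lay between 2 and 765 when another library was left out.

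Some markers of fibroblasts and of other cells passed the test in the same comparisons. Of all tested genes 2.44% were called in combination against anti-IL-1R1 and 2.19% in the average effect of CD40 agonist. Of 13 fibroblast markers 2 rose in combination against anti-IL-1R1 and 0 fell: Pdpn, podoplanin, at 17.2, 25.5 and 12.8 against 40.0, 44.4 and 98.8 CPM (adjusted p 0.0429) and Pdgfra at 36.8, 37.6 and 35.4 against 58.8, 68.8 and 55.6 CPM (adjusted p 0.0451). Both also rose in the average effect of CD40 agonist (adjusted p 0.0322 and 0.0281). The summed level of the fibroblast list was 924 to 1510 CPM with anti-IL-1R1 and 889 to 1777 CPM in the combination. Of 10 leukocyte markers 4 rose in combination against anti-IL-1R1, with sums of 223 to 342 and 621 to 844 CPM. Of 12 epithelial markers 3 fell there, with sums of 4167 to 5169 and 2604 to 3489 CPM, among them Krt19 at 829, 800 and 891 against 495, 417 and 220 CPM. As with the response genes above, these marker calls were lost with the replicate block, which cannot show whether they hold. None of them was called in combination against anti-IL-1R1 when any 1 of the anti-IL-1R1 libraries was left out. Epcam, a gene of low level, was at 0.102 and 0.128 CPM in combination 1 and 3 and at 0 in combination 2, against 2.56 to 12.9 CPM in untreated. It does not stand for the whole epithelial list. The sum of that list was 4064 to 5624 CPM in untreated and 4007 to 5570 CPM with CD40 agonist, beside 2604 to 3489 CPM in the combination. The part of these cells in the levels of the matrix genes was not tested. With both muscle-rich libraries left out 0 matrix genes passed in any comparison, and their median in combination against untreated was -0.17.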

How the data were processed

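Per the labels, RNA was extracted with TRIzol from tumours powdered in liquid nitrogen. The submitters' processing notes name mm39 and DESeq2, and neither these nor the labels name an aligner, a counting tool, an annotation release or a strand setting. Raw read counts per gene came from 3 tables the authors deposited, each with 2 groups, and per the file headers also normalized counts, FPKM, log2 fold changes and p-values (adjusted p) of the authors' own test. The deposited normalized values and FPKM, 42 columns, were not used, and the authors' log2 and p-values only to count their calls.

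Counts were joined on the 25619 genes in all 3 tables (31106 in any), with 0 mismatches between tables. edgeR 4.0.16 in R 4.3.3 (quasi-likelihood test, robust, TMM factors, filterByExpr) was fitted to all 12 libraries, with 19436 genes tested and 8 residual degrees of freedom. The script was tested on simulated data. CPM are on TMM-scaled totals, and RPKM use the deposited gene length. All adjusted p of single genes are from edgeR unless DESeq2 1.42.0 is named. Transcript length and GC content are from GENCODE on GRCm38, matched by gene ID with none of its coordinates. With 27.8 to 53.3 M reads per library, Tagln alone had under 50 reads in every library.

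The 36 members and all lists were chosen with earlier results of these data known, and 1 list gene is not reported here. Named genes were 11 set members (Col1a1, Col1a2, Col3a1, Fn1, Sparc, Postn, Acta2, Tagln, Fap, Lrrc15, Cthrc1), any called member, and the 5 members with the lowest p per comparison. Deviations from the group mean correlated between untreated and anti-IL-1R1 libraries with the same number (0.230, 0.193 and 0.220). By the rule set for this their numbers were taken to pair them. Single values as high occurred in groups that did not pair, such as 0.235 for replicate 1 of untreated and combination. The main fit ignored this pairing, which entered only as the replicate block. No label says why, and the other groups did not pair. Alternatives were other scaling factors, DESeq2, limma voom 3.58.1, no filter, only the groups compared, a replicate block, leaving out libraries, and an offset for GC content and length, the last chosen after the data were seen.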

Additional observations from a re-analysis of the deposited data

How the results depend on the processing

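With 0 members called in the main fit, no call could change its sign, but some medians of the members did, as given below. Other scaling factors, limma voom, no filter, only the groups compared and the offset for GC content and length called 0 members in every comparison. So did leaving out the 2 muscle-rich libraries or the 2 libraries low in long GC-rich transcripts. The replicate block also gave 0 members in all 8 comparisons, with a median of -0.13 for anti-IL-1R1 against untreated and -0.38 for combination against untreated. With the block the calls over all genes went to 0 from 12 in combination against untreated and 474 in combination against anti-IL-1R1. The 426 calls in the average effect of CD40 agonist also went to 0. Lost with them were those of the listed response genes, receptors and cell markers. As only untreated and anti-IL-1R1 numbers were taken to pair, the block cannot show whether these calls hold. DESeq2 called 2 members in combination against untreated, 1 in combination against anti-IL-1R1 and 1 in the average effect of CD40 agonist, with 1031, 1297 and 1110 genes in all against 12, 474 and 426 by edgeR. The cause was not tested.

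With 1 library left out at a time, the members called ran from 0 to 5 in combination against untreated, 0 to 4 in combination against anti-IL-1R1, 0 to 2 in the average effect of CD40 agonist (1 without CD40 agonist 3, 2 without combination 2) and 0 in the other 5. The median log2 fold change ran from -0.934 to -0.092 for combination against untreated, -0.844 to 0.048 for combination against anti-IL-1R1, -0.813 to -0.036 for combination against CD40 agonist and -0.581 to 0.2 for the interaction, the lowest each without combination 2. It ran from -0.354 to 0.072 for anti-IL-1R1 against untreated, -0.199 to -0.001 for CD40 agonist against untreated, -0.460 to -0.021 for the average effect of CD40 agonist and -0.470 to -0.034 for that of anti-IL-1R1. Only the groups compared could not be fitted for the interaction and the averages.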
